A study of Mus musculus with 6 samples.

Results

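The histone genes of the mouse were followed in cells exposed to oxygen and glucose deprivation with reoxygenation (OGD/R), with and without phillyrin, a lignan glucoside from Forsythia. They were chosen by a rule on their names, though with earlier results of these data known. The rule took the genes of the histone clusters (H1f1 to H1f5 and the H2ac, H2bc, H3c and H4c series), the variant genes, and 4 linker genes of the germline. Cluster genes were taken as replication-dependent by name alone, and whether single ones are used only in the germline was not checked. The rule found 76 of the 21959 genes in the table, made up of 63 cluster genes, 9 variant genes (H1f0, H1f10, H2ax, H2az1, H2az2, H3f3a, H3f3b, Macroh2a1 and Macroh2a2) and the germline genes H1f6, H1f7, H1f8 and H1f9.

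RNA was sequenced from cells labelled HL-1, an atrial cardiomyocyte line of the mouse, as paired reads of 150 bases from RNA enriched on poly(T) beads. The 3 libraries of the OGD/R group came from cells kept for 4 h without glucose under hypoxia and then for 24 h in complete medium with oxygen. The 3 libraries of the phillyrin group were given the same deprivation, with phillyrin at 50 µg/mL for 8 h beforehand and for a further 16 h together with OGD/R. All were labelled wild type and assigned to the same batch. No library without OGD/R and no solvent control was analysed here, so the effects of phillyrin and of its solvent cannot be told apart. Whether the 3 libraries of each group were grown as independent cultures is not stated. The p-values set the group difference against the spread among these libraries, and that spread may be only technical.

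Library totals ran from 14761317 to 22123648 counts. Of 13 atrial cardiomyocyte markers, 4 had 0 counts in every library (Myh6, Actn2, Mybpc3 and Sln). Levels are given as CPM (counts scaled to library size). Nppa, Myl7, Actc1, Tbx5 and Ryr2 reached at most 0.289 CPM in any library, and only 4 of the 13 passed the filter on low counts. The summed level of the list was 151 to 152 CPM in OGD/R and 180 to 196 CPM with phillyrin. Tnnt2 alone held most of it, at 116 and 153 CPM. The 5 skeletal myoblast markers summed to 821 to 833 CPM and 826 to 864 CPM, mostly Des. Myod1 rose from 83.2 to 97.2 CPM and Myf5 fell from 64.2 to 52.5 CPM. Pax7 (2.85 and 3.17 CPM) and Myog (0.351 and 0.441 CPM) were low. The 4 fibroblast markers summed to 897 to 908 CPM and 770 to 791 CPM. The genes at 0 include defining markers of heart muscle, Myh6 and Actn2 among them. Most of the cardiomyocyte list was thus hardly seen, and these markers do not bear out the label HL-1. Which cells were sequenced was not tested. Of 25 genes of S phase and replication, 1 rose and 20 fell, while all 20 genes of G2 and mitosis rose, against 16.0% of all tested genes that rose and 15.6% that fell. The part of these differences in the histone values was not tested.

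Histones are the proteins around which DNA is wound. An octamer of the core histones H2A, H2B, H3 and H4 forms the nucleosome, and the linker histone H1 binds where DNA enters and leaves it. Cluster genes supply the bulk histones of S phase, and their mRNAs usually lack introns and end in a short stem-loop, bound by the protein Slbp, in place of a poly(A) tail. Variant genes are expressed through the cell cycle, mostly as ordinary polyadenylated mRNAs, and heart muscle cells that no longer divide rely on them for histone turnover. Libraries made from poly(A) RNA therefore miss most ordinary cluster transcripts.

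Because the RNA end decides which histone transcripts such libraries can hold, the ends of the transcript models were read from GENCODE M21 (build GRCm38). All 76 genes were matched by Ensembl identifier. The stem-loop was searched on the sense strand as a left arm GGNNNT, a loop TNTN and a right arm ANNNCC in direct succession, with the 6 bases of the arms pairing (G with T allowed) around the loop of 4. It was found in 42 of 63 cluster genes (66.7%), in 1 variant gene (H2ax) and in 1 germline gene (H1f6), against 0.293% of 21825 other protein-coding genes, with models of any length. The windows below show the stem-loop in capitals with 5 bases on each side, for 3 genes with counts and 1 with none.
H1f2 stem-loop: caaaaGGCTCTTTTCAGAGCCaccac
H2ax stem-loop: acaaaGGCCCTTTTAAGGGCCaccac
H4c9 stem-loop: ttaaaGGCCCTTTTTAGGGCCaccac
H2ac20 stem-loop: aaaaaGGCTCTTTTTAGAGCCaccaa

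The most frequent form, that of H1f2, occurred in 24 of the genes. The models of the first 3 genes do not stop there: 840 bases follow the stem-loop in H1f2, 822 in H2ax and 330 in H4c9. In H2ac20 only 57 bases follow. The last 30 bases of 4 models are shown next because each carries a poly(A) signal (AATAAA or ATTAAA, in capitals), the hexamer that directs addition of a poly(A) tail.
H1f2 end: ttctAATAAAaagcgtttagttttcattca
H4c9 end: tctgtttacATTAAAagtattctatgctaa
H2bc21 end: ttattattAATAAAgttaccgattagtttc
H2az2 end: aAATAAAgaaactagcactagtgtgacaaa

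A signal of either spelling lay in the last 40 bases of 13 of 63 cluster genes and 8 of 9 variant genes, against 76.2% of the other protein-coding genes. A match is a description of the letters in a model, and no match says only that these letters are not in it.

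Cluster histone transcripts were scarce and variant transcripts abundant in all 6 libraries. The 63 cluster genes together had 8186 counts over the 6 libraries, and the 9 variant genes had 296362. The germline linker genes had 16 counts together, 12 of them from H1f9, which overlaps Sgca on the opposite strand. Cluster genes made up 2.79%, 2.82% and 2.88% of all histone counts in OGD/R replicates 1 to 3, and 2.55%, 2.60% and 2.40% with phillyrin. These shares did not overlap between the groups. Histone genes as a whole took 0.264% to 0.283% of the counts of a library.

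Of the cluster genes, 18 had 0 counts, 20 had 1 to 9, 18 had 10 to 99 and 7 had 100 or more. A count of 0 over all libraries allows a level of up to 0.0269 CPM, counting error only. The linker genes held most of the counts, with 5911 over 5 genes, and H2B genes followed with 1532 over 17. H4 genes had 557 over 12, H3 genes 141 over 12 and H2A genes 45 over 17, of which 12 had none. H1f2 alone gave 62.5% to 71.1% of the cluster counts of a library. The core histone genes of the clusters were thus barely seen, H2A least of all.

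The scarce counts were not spread evenly over the forms of transcript end. The 19 cluster genes whose model runs at least 100 bases past the stem-loop had 6640 counts, 5476 of them from H1f2. Their median was 26 per gene, and 1 of them had none. The 23 genes whose model ends within 100 bases of the stem-loop had 143 counts in all, a median of 2, and 7 had none. In the 21 models without a match the sum was 1403, of which H2bc4 gave 842, and the median 1, with 10 at 0. These counts are not scaled to length, and a model that runs on past the stem-loop is longer for it. Counts are per gene, so which end the sequenced molecules had was not seen.

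**Figure D1:**
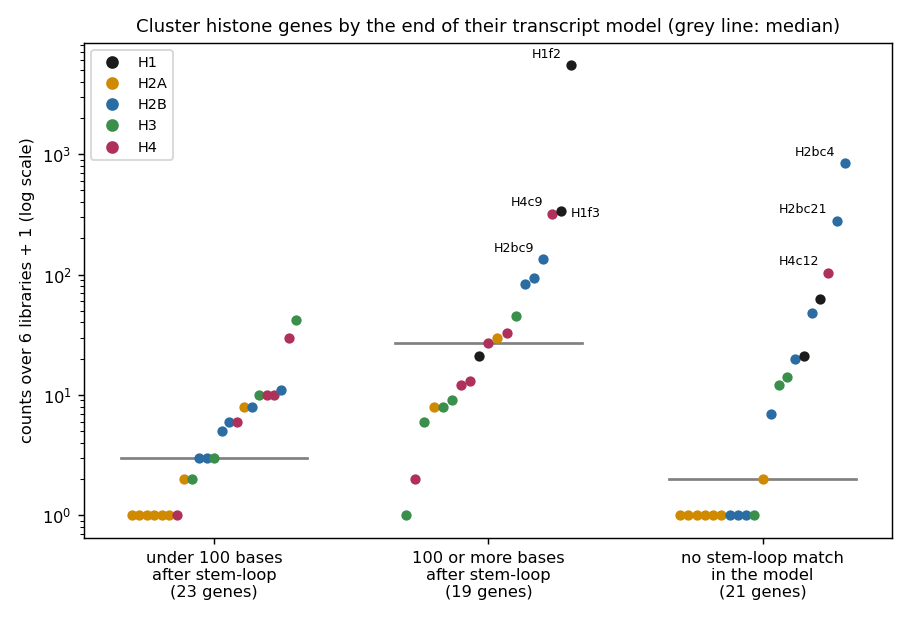
Counts of the 63 cluster histone genes, summed over 6 libraries plus 1 on a log scale, by the end of the GENCODE M21 transcript model (from left to right under 100 bases after the stem-loop, 100 or more, or no stem-loop), 1 point a gene coloured by family, with the group median as a grey line. The medians are 2, 26 and 1 counts, and H1f2 lies above every other gene.

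Sequence shared between copies goes along with low counts as well. Cluster genes are near-identical in many places, and a read that matches several genes may be dropped or split. The share of 150-base windows of a model found in no other gene's transcripts had a median of 38.1% in the 18 genes at 0 and of 97.8% in the 10 genes that passed the filter on low counts. For the 17 H2A genes it was 40.7%. The 21 genes with at most 50% of windows unique had 249 counts, a median of 1 per gene. The other 42 had 7937, a median of 8, with 5476 of them from H1f2. Among the 12 genes whose every window was unique, 4 still had 0 counts (H2ac1, H2ac15, H2ac20 and H2ac21). How the authors counted reads with several matches is not given in the sources used here, so values of near-identical copies are uncertain.

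Per length, as fragments per kilobase and library size (FPKM), variant genes led the order. The length is the authors' value for the gene, which can exceed every transcript model. For H2az1 it was 1776 bases, while its longest GENCODE M21 model had 1069, so the order below depends on the length used. H3f3b was highest at a mean of 372 FPKM over the 6 libraries (355 to 394), followed by H1f0 at 328 FPKM, H2az1 at 254 FPKM and H3f3a at 84.7 FPKM. No library of one of these 4 overlapped the range of the next gene. H1f2, the highest cluster gene, came next at 31.2 FPKM, with a range that overlapped that of H2az2 at 24.9 FPKM. H2ax stood at 19.0 FPKM, apart from its neighbours on both sides.

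Lower in the order, Macroh2a1 at 7.42 FPKM, H2bc4 at 6.49 FPKM, H4c9 at 3.87 FPKM, H1f10 at 3.13 FPKM and H4c12 at 3.05 FPKM each overlapped the gene next to them. H4c12 did not overlap Macroh2a2, at 1.42 FPKM. From there down each gene overlapped the next: H2bc8 at 1.17 FPKM, H2bc21 at 0.954 FPKM, H1f5 at 0.749 FPKM, H2bc9 at 0.700 FPKM, H1f3 at 0.406 FPKM and H2bc6 at 0.193 FPKM. Of the 10 cluster genes, H1f2 therefore was the only one near the level of the variants H2az2 and H2ax.

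**Figure D2:**
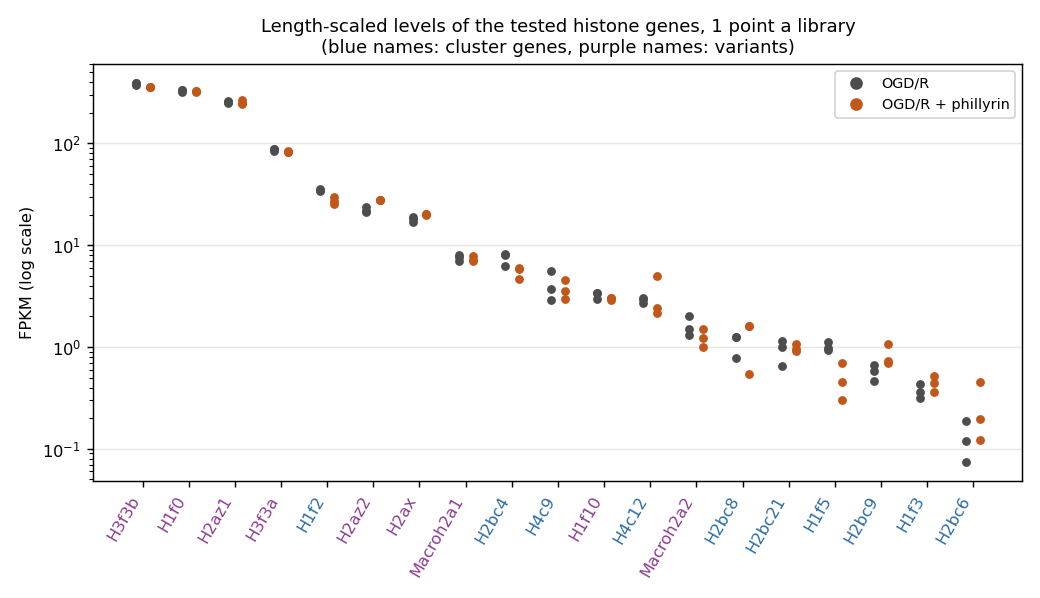
FPKM on a log scale of the 19 histone genes that passed the filter on low counts, ordered by mean, 1 point a library, with OGD/R and phillyrin libraries in different colours and gene names coloured by class. H3f3b, H1f0, H2az1 and H3f3a lie above all cluster genes, and H1f2 is the highest cluster gene.

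Between the groups, 4 of the 19 tested histone genes changed with phillyrin. The variants H2az2 and H2ax rose, and the cluster genes H1f2 and H2bc4 fell. The test was edgeR's quasi-likelihood test, with Benjamini-Hochberg adjustment over 11658 genes and a threshold of 0.05. In that test 31.7% of all genes were called, 16.0% higher and 15.6% lower, so the share among histone genes, 21.1%, was not above the background. Values of 7 of the 19 did not overlap between the groups, against 43.1% of all genes. The median log2 fold change was 0.02 over the 19 and -0.01 over all genes. In bulk RNA, fewer cells of a type and less RNA per cell cannot be told apart, and the strand setting is not given, so overlapping genes cannot be separated.

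**Figure D3:**
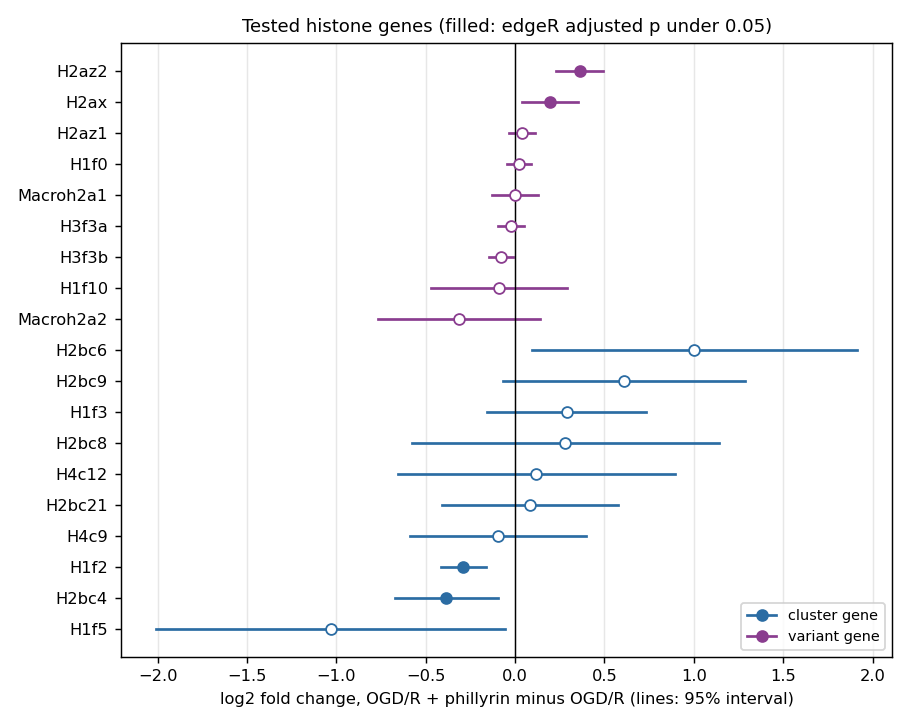
Log2 fold change of the 19 tested histone genes, phillyrin minus OGD/R, with 95% intervals that are not adjusted for the number of genes, coloured by class. Filled points mark edgeR adjusted p under 0.05: H2az2 and H2ax on the right, H1f2 and H2bc4 on the left.

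Of the 10 cluster genes tested, 2 fell (20.0%), against 15.6% of all tested genes. None rose in edgeR, DESeq2 or limma-voom. In edgeR, 1 gene was higher (H2bc6) and 3 were lower at an unadjusted p under 0.05. Of all 11658 genes, 2369 were higher and 2435 lower at that level. The other 53 cluster genes did not pass the filter: 18 had no count, and none had more than 47 counts in all (H2bc23) or 0.765 CPM in a library. Their summed counts were 54, 94 and 75 in OGD/R and 71, 88 and 80 with phillyrin, ranges that overlapped. The cluster values thus rest on a few genes.

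H1f2 (ENSMUSG00000036181, chromosome 13, 23922791 to 23924350, plus strand, build GRCm39) encodes a linker histone made in S phase. Its level was 53.2, 52.8 and 54.9 CPM in OGD/R replicates 1 to 3, and 43.1, 47.2 and 40.8 CPM with phillyrin. Every phillyrin library lay below every OGD/R library. On average it was 53.6 ± 1.11 CPM and 43.7 ± 3.23 CPM (SD, n = 3), and the fitted difference was -0.29 on the log2 scale (SE 0.06, edgeR adjusted p = 0.000406). It was called in all 14 alternatives, with log2 fold changes from -0.35 to -0.24. Its model carries the longer end shown above, every window of it is unique, and no annotated gene overlaps it.

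H2bc4 (ENSMUSG00000018102, chromosome 13, 23868182 to 23876891, plus strand) encodes a copy of H2B. It measured 9.03, 7.14 and 9.37 CPM in the OGD/R libraries and 6.84, 6.94 and 5.57 CPM in the phillyrin libraries. The groups did not overlap, but OGD/R replicate 2 lay close to the upper phillyrin libraries. The log2 fold change was -0.38 (SE 0.14, edgeR adjusted p = 0.0360). The call was lost with DESeq2 (0.104) and limma-voom (0.0553), and without OGD/R replicate 1 (0.122), OGD/R replicate 3 (0.169) or phillyrin replicate 3 (0.145).

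The remaining linker genes of the clusters had few counts. H1f5 stood at 0.811, 0.724 and 0.684 CPM in the OGD/R libraries and at 0.527, 0.228 and 0.348 CPM in the phillyrin libraries, from 62 counts in all. Its groups did not overlap, and its log2 fold change of -1.03 (95% interval -2.01 to -0.05) had an edgeR adjusted p of 0.101. H1f3 stood at 2.33, 3.14 and 2.63 CPM against 3.86, 2.74 and 3.41 CPM, groups that overlapped, and differed by 0.29 on the log2 scale (SE 0.22, edgeR adjusted p = 0.343), and by 0.17 without phillyrin replicate 1. H1f1 and H1f4 had 20 counts each and were not tested. A fall like that of H1f2 was therefore not called in another cluster H1 gene.

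Among H2B genes, H2bc9 stood at 0.757, 0.965 and 1.11 CPM in the OGD/R libraries and 1.17, 1.83 and 1.25 CPM in the phillyrin libraries, without overlap (log2 fold change 0.61, SE 0.33, edgeR adjusted p = 0.165). H2bc6 stood at 0.324, 0.820 and 0.526 CPM against 2.05, 0.548 and 0.904 CPM, and overlaps H1f4 on the same strand. Phillyrin replicate 1 held 35 of its 93 counts. Its log2 fold change was 1.00 (SE 0.45, edgeR adjusted p = 0.0861), and without phillyrin replicate 2 it was 1.41 and called (0.0202). Without phillyrin replicate 1 it was 0.31 (0.691). H2bc21 (0.08, 95% interval -0.41 to 0.58) and H2bc8 (0.28, SE 0.42, edgeR adjusted p = 0.653) overlapped between the groups. Leaving out phillyrin replicate 2 moved H2bc9 to 0.36 and H2bc8 to 0.06, and leaving out OGD/R replicate 1 moved H2bc21 to -0.12.

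Of the H4 genes, H4c9 stood at 2.05, 4.00 and 2.68 CPM in the OGD/R libraries and 2.16, 3.34 and 2.64 CPM in the phillyrin libraries, with a log2 fold change of -0.10 (95% interval -0.59 to 0.40) that was 0.21 without OGD/R replicate 2. H4c12 had 103 counts and a fitted difference of 0.12 on the log2 scale (SE 0.38, edgeR adjusted p = 0.840), which was -0.30 without phillyrin replicate 3. Both overlapped between the groups, and their intervals leave room for a difference in either direction. No H3 or H2A gene of the clusters could be tested.

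Added over the 63 genes, cluster transcripts came to 74.7, 78.8 and 79.7 CPM in the OGD/R libraries and 68.0, 71.0 and 65.3 CPM in the phillyrin libraries. The groups did not overlap, and the means differed by -9.67 CPM. That difference lay in H1f2: without it the sums differed by 0.280 CPM in the other direction, and without H1f2 and H2bc4 by 2.34 CPM. By family, the summed H1 genes went from 57.3 ± 0.991 to 47.9 ± 2.84 CPM, H2B from 14.0 ± 0.677 to 13.4 ± 0.718 CPM, and H4 from 4.73 ± 1.25 to 5.25 ± 0.843 CPM (SD, n = 3). No test was made on these sums.

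**Figure D4:**
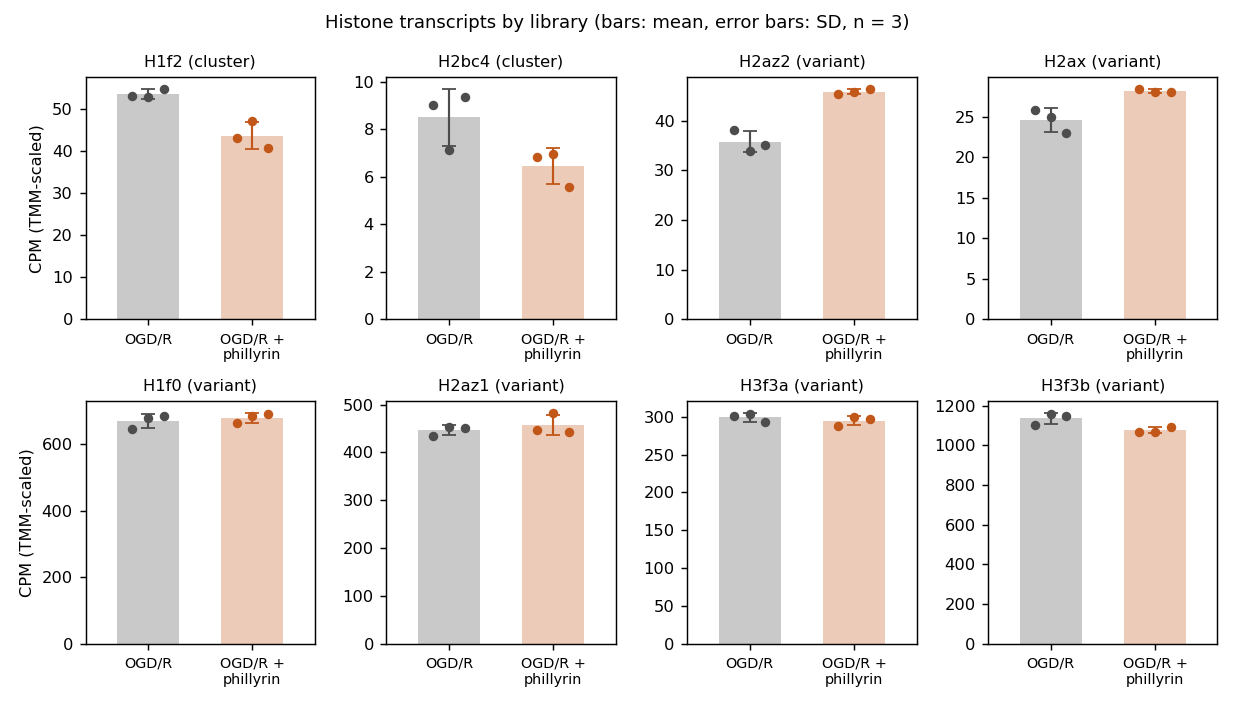
CPM of 8 single histone genes, 1 point a library, scaled with the trimmed mean of M-values (TMM), OGD/R against OGD/R with phillyrin, with bars for the mean and error bars for the SD (n = 3). H1f2 and H2bc4 lie lower, and H2az2 and H2ax higher, in all 3 phillyrin libraries.

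All 9 variant genes could be tested, and 2 of them rose (22.2%), against 16.0% of all tested genes. None fell in edgeR, where 1 was lower at an unadjusted p under 0.05 (H3f3b), as were 2435 of all 11658 genes. None fell in DESeq2. In limma-voom 1 variant fell, also H3f3b (adjusted p = 0.0283). The 4 most abundant variants differed by 0.08 or less on the log2 scale (H3f3b by -0.12 with library sizes alone), and both that rose were of intermediate level.

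H2az2 (ENSMUSG00000041126, chromosome 11, 6377229 to 6394443, minus strand) encodes a form of H2A.Z, a variant found at promoters and enhancers. It measured 38.1, 34.0 and 35.1 CPM in the OGD/R libraries and 45.4, 45.7 and 46.4 CPM in the phillyrin libraries. The lowest phillyrin library lay well above the highest OGD/R library. The mean was 35.7 ± 2.13 CPM and 45.8 ± 0.518 CPM (SD, n = 3). The fitted difference was 0.36 on the log2 scale (SE 0.07, edgeR adjusted p = 3.7e-05), and the call was made in all 14 alternatives (0.32 to 0.41).

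H2az1, which encodes the other H2A.Z, was the more abundant gene of the pair. It stood at 434, 453 and 451 CPM in the OGD/R libraries and 447, 482 and 444 CPM in the phillyrin libraries, groups that overlapped (log2 fold change 0.04, 95% interval -0.03 to 0.11). Counts of H2az2 were 8.77%, 7.50% and 7.77% of those of H2az1 in OGD/R and 10.2%, 9.47% and 10.5% with phillyrin. These ratios did not overlap, and the two-sided exact permutation test gave p = 0.1, the smallest that 3 against 3 allow (0.2 after adjustment over 4 ratios). The ratio was set in this way because it needs no scaling between libraries.

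H2ax (ENSMUSG00000049932, chromosome 9, 44245991 to 44247374, plus strand) encodes H2A.X, the H2A that is phosphorylated around DNA breaks. Its gene can give both a stem-loop mRNA and a longer polyadenylated one. It measured 25.8, 24.9 and 23.0 CPM in the OGD/R libraries and 28.4, 28.0 and 28.0 CPM in the phillyrin libraries, without overlap. The log2 fold change was 0.20 (SE 0.08, edgeR adjusted p = 0.0473). That call was lost in 9 of 14 alternatives: with library sizes alone (0.129), DESeq2 (0.0930), no filter on low counts (0.0527) or the replicate number as a block (0.0516), and without OGD/R replicate 2 (0.0900), OGD/R replicate 3 (0.212) or phillyrin replicate 1 (0.0751), 2 (0.0770) or 3 (0.0584).

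H3.3, the replacement H3 laid down outside S phase, comes from H3f3a and H3f3b. H3f3b stood at 1105, 1156 and 1147 CPM in the OGD/R libraries and 1067, 1067 and 1093 CPM in the phillyrin libraries, without overlap. Its log2 fold change was -0.08 (SE 0.03, edgeR adjusted p = 0.0609). It was called lower with library sizes alone (-0.12, 0.00208) and without phillyrin replicate 3 (0.0331). H3f3a, at 301, 304 and 293 CPM against 288, 299 and 297 CPM, overlapped between the groups (-0.02, 95% interval -0.09 to 0.05). The ratio of H3f3a to H3f3b counts was 26.3% in OGD/R and 27.4% with phillyrin (two-sided exact permutation p = 0.3).

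H1f0 encodes H1.0, the linker histone of cells that have stopped dividing, and stood at 645, 680 and 685 CPM in the OGD/R libraries and 663, 685 and 691 CPM in the phillyrin libraries. The groups overlapped, with a log2 fold change of 0.02 (95% interval -0.05 to 0.09) that turned to -0.02 with library sizes alone. Beside it, H1f2 fell: counts of H1f2 were 8.24%, 7.77% and 8.01% of those of H1f0 in OGD/R and 6.50%, 6.89% and 5.90% with phillyrin. Those ratios did not overlap (two-sided exact permutation p = 0.1, adjusted 0.2). H1f10, at 3.57, 4.10 and 4.11 CPM against 3.74, 3.70 and 3.62 CPM, was not called (-0.09, 95% interval -0.47 to 0.29).

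The macroH2A genes encode H2A variants with a large extra domain, known from the inactive X chromosome. Macroh2a1 stood at 50.7, 53.9 and 47.0 CPM in the OGD/R libraries and 53.4, 48.2 and 50.2 CPM in the phillyrin libraries, and its 95% interval reached from -0.13 to 0.13 on the log2 scale. Macroh2a2 stood at 4.27, 2.80 and 3.21 CPM against 3.28, 2.70 and 2.23 CPM (log2 fold change -0.31, SE 0.22, edgeR adjusted p = 0.306; -0.13 without OGD/R replicate 1). It overlaps Aifm2, with 3374 counts, on the opposite strand. Both genes overlapped between the groups.

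Summed over the 9 genes, variant transcripts came to 2669 ± 55.4 CPM without phillyrin and 2639 ± 34.1 CPM with it (SD, n = 3), overlapping groups. There were 0.0287, 0.0291 and 0.0297 cluster counts per variant count in OGD/R and 0.0262, 0.0267 and 0.0246 with phillyrin. The difference in that ratio was -0.00332, and without H1f2 it was 0.000222, so H1f2 set its direction.

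Genes that make and process histone mRNA were read from a list of 27, all tested, of which 5 rose and 3 fell (median log2 fold change 0.05), not above the 31.7% called over all genes. Slbp, whose protein binds the stem-loop and rises in S phase, stood at 56.5, 54.9 and 57.2 CPM in the OGD/R libraries and 50.9, 44.8 and 44.1 CPM in the phillyrin libraries. Its groups did not overlap, and it fell by 0.27 on the log2 scale (SE 0.06, edgeR adjusted p = 0.000854) and in all 14 alternatives. Like H1f2, Slbp was lower in all 3 phillyrin libraries, and it is also counted among the 25 genes of S phase and replication above. Hinfp, an activator of H4 genes, fell (-0.28, edgeR adjusted p = 0.00940; 0.136 without phillyrin replicate 2).

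Npat, the coactivator that gathers at the histone loci, had means of 42.9 CPM without phillyrin and 47.9 CPM with it (0.16, edgeR adjusted p = 0.0499). Its call was lost in 10 of 14 alternatives, among them those without OGD/R replicate 1 (0.0915), 2 (0.0974) or 3 (0.156) or phillyrin replicate 1 (0.185). Eri2, an exonuclease related to the histone mRNA nuclease Eri1, rose from 10.6 ± 0.648 to 16.1 ± 0.998 CPM (0.60, edgeR adjusted p = 2.24e-05), and overlaps Rexo5 and Acsm3 on the opposite strand. The transcription factor Yy1 (0.22, edgeR adjusted p = 6.07e-05) and the noncanonical poly(A) polymerase Tent4b (0.24, edgeR adjusted p = 0.000468) rose as well.

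Of the factors that cleave histone pre-mRNA, Cpsf2 rose (0.13, edgeR adjusted p = 0.0106) and Cstf2 fell (-0.14, edgeR adjusted p = 0.0189). From the same list, Cpsf3 (-0.05, edgeR adjusted p = 0.555), Sympk (-0.09, edgeR adjusted p = 0.228) and Cpsf1 (-0.11, edgeR adjusted p = 0.0682) were not called. On the opposite strand, Cpsf2 overlaps Ndufb1 and Cstf2 overlaps Nox1. Cpsf2 lost its call with library sizes alone (0.0760) and without OGD/R replicate 1 (0.0620), OGD/R replicate 3 (0.0574) or phillyrin replicate 3 (0.0530). Cstf2 lost its call without OGD/R replicate 2 (0.0524), OGD/R replicate 3 (0.0790) or phillyrin replicate 3 (0.127). Casp8ap2 (0.05), Lsm10 (-0.06) and Lsm11 (0.09), parts of the machinery around the U7 particle, were not called. The number of genes that rose was 3 without OGD/R replicate 1 or 3.

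Chaperones and exchange factors, which carry histones to DNA and swap variants, made a list of 38, all tested, with 3 higher and 7 lower (median -0.01), against 16.0% and 15.6% of all genes. Chaf1b, a subunit of the CAF-1 complex that deposits new H3 and H4 behind the replication fork, stood at 37.4, 35.8 and 37.2 CPM in the OGD/R libraries and 17.8, 20.5 and 18.6 CPM in the phillyrin libraries. The groups lay far apart, and it fell by 0.95 on the log2 scale (SE 0.08, edgeR adjusted p = 2.24e-12). Its partner Chaf1a was not called (-0.09, edgeR adjusted p = 0.273). Mcm2, a helicase subunit that also holds H3 and H4, fell from 133 ± 5.88 to 91.8 ± 7.77 CPM (-0.53, edgeR adjusted p = 1.63e-10). Ipo4, which imports H3 and H4, fell (-0.33, edgeR adjusted p = 0.000277), and overlaps Gm49378 on the same strand.

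Hjurp, the chaperone of the centromeric H3, rose from 152 ± 3.44 to 188 ± 4.99 CPM (0.30, edgeR adjusted p = 1.25e-07). The other genes that fell were Nap1l4 (-0.18), Tonsl (-0.35), Hat1 (-0.17, adjusted p = 0.0103) and Dmap1 (-0.26, adjusted p = 0.0227). Tonsl overlaps Vps28 on the same strand. Hat1 lost its call without phillyrin replicate 2 (0.0794), and Dmap1 with DESeq2 (0.0745) and without OGD/R replicate 1 (0.0527), OGD/R replicate 3 (0.196) or phillyrin replicate 1 (0.122). Set (0.10, edgeR adjusted p = 0.0130) and Ubn2 (0.16, edgeR adjusted p = 0.0382) rose. Set lost its call in 3 of 14 alternatives: with library sizes alone (0.137) and without OGD/R replicate 1 (0.0564) or 3 (0.0966). Ubn2 lost its call in 7: with library sizes alone (0.162), DESeq2 (0.0654) or limma-voom (0.0509), and without OGD/R replicate 1 (0.0536), 2 (0.180) or 3 (0.0688) or phillyrin replicate 1 (0.341).

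Ubn2 belongs to the HIRA complex. Hira (0.03), Daxx (-0.05) and Atrx (0.06), which place H3.3, were not called, nor was Anp32e (-0.02), which removes H2A.Z. Of other exchange factors in the list, Dmap1 fell, as given above. Srcap (-0.09), Ep400 (-0.04), Vps72 (0.03), Znhit1 (0.07) and Yeats4 (0.15, edgeR adjusted p = 0.0512) were not called. Asf1b (0.16, edgeR adjusted p = 0.0542) and Nasp (-0.10, edgeR adjusted p = 0.101), which hand on H3 and H4, were not called. The number of genes of the list that rose moved from 3 to 1 without OGD/R replicate 1 or 3, to 5 without phillyrin replicate 1 and to 6 without phillyrin replicate 2.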

How the data were processed

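RNA was measured in 6 libraries, 3 a group. Trimmomatic 0.39, HISAT2 2.2.1, featureCounts 2.0.3, DESeq2 1.34.0 and build GRCm39 are named in the submitters' processing notes. The deposited table holds the authors' read counts per gene and the FPKM values the authors derived from them, per the file headers; FPKM equalled count over length and library total to a relative difference of 2.43e-07. Columns were assigned to libraries by title. Library totals were 14761317 to 22123648 counts, and the common biological coefficient of variation was 4.05%. With so small a spread, small differences can be called, and that spread may be only technical.

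Counts were tested with edgeR 4.0.16 (filterByExpr, TMM, robust quasi-likelihood fit, R 4.3.3) over 11658 genes. Sums and ratios carry no model. CPM values are TMM-scaled. DESeq2 1.42.0, limma-voom (limma 3.58.1), other scaling and filters, a replicate block and the omission of each library were alternatives. The procedure was tested on simulated counts. Transcript ends came from GENCODE M21, a different annotation and build from the authors'. All tested histone genes were described; of each pathway list, up to 4 genes with the smallest p and a fixed set of central genes, while other list genes were named after their values were seen. The members and lists were chosen with earlier results of these data known. Another 19 RNAs without a poly(A) tail were looked up, and 0 were in the table. The table keeps 6437 genes with 0 counts, so missing rows say nothing about such RNAs in the libraries. Endothelial and leukocyte markers summed to at most 1.23 and 0.410 CPM in any library.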

Additional observations from a re-analysis of the deposited data

How the results depend on the processing

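H1f2, H2az2 and Slbp kept direction and call in all 14 alternatives. The count of histone genes that rose, and of variants among them, was 2, and 1 with library sizes alone, DESeq2, no filter on low counts or the replicate block (1 to 2 when single libraries were left out). The count that fell was 2, 3 with library sizes alone and 1 with DESeq2 (1 to 2 without single libraries). Cluster genes that fell numbered 2, and 1 with DESeq2 or limma-voom (1 to 2), and those that rose 0 (0 to 1). Variants that fell numbered 0, and 1 with library sizes alone or limma-voom (0 to 1). Of the mRNA processing list, 5 rose, and 3 did with library sizes alone (3 to 5). Of the chaperone list, 3 rose, and 5 did with RLE factors and 1 with library sizes alone (1 to 6). Reversed were the difference in summed cluster CPM without H1f2 (0.280) and without H1f2 and H2bc4 (2.34, chosen after seeing the data), and the cluster to variant ratio without H1f2 (0.000222); both follow from leaving these genes out. For the other changes the cause was not tested. With library sizes alone the median log2 fold change over all genes was -0.06, against -0.01 in the main fit. Replicate numbers are shared between groups, but deviations of same-numbered libraries correlated at 0.0028 to 0.0056, so the numbers did not pair them. Each library correlated best with its own number, as a hint from the data only. Of the cluster genes, 53 had too few counts to test, for reasons that were not tested.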

Other observations

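Some histone genes fell outside the naming rule and were looked at after the values were seen. Cenpa, the H3 variant that marks centromeres, stood at 114, 114 and 108 CPM in OGD/R and 162, 151 and 140 CPM with phillyrin. The groups did not overlap, and it rose by 0.43 on the log2 scale (SE 0.05, edgeR adjusted p = 2.05e-09). Its chaperone Hjurp rose too, as given above. H2aj, a variant of H2A, went from 5.98 ± 0.637 to 5.65 ± 0.811 CPM and overlapped between the groups (-0.07, edgeR adjusted p = 0.787). H2aw had 59 counts (edgeR adjusted p = 0.813). Too few counts for a test were found for H2ap (25), H3f4 (27), H4f16 (13), H2bu2 (7) and H2al3 (6).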
